A study of Mus musculus with 7 samples.

Results

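A set of 6 genes of the plasminogen activation system were examined in serially transplanted mouse gliomas, namely the urokinase gene Plau, its receptor Plaur, the tissue plasminogen activator Plat, plasminogen itself (Plg) and the inhibitors Serpine2 and Serpinb2. The set of 6 was selected on the large fall of Plau between the groups compared here, so the difference between groups is given for these genes as a description, with no test. Genes were found by their symbol in the platform annotation, using probes that carry 1 symbol, and a gene with several probes was read from the one with the highest mean over the 7 arrays. Of the 6, 5 had such a probe, among 18193 genes in all, and Serpine2 was not analysed here. Plau, Plaur and Plat were among the 14453 genes tested, whose mean log2 expression was at or above 3.99, the 25th percentile of all probes. Plg and Serpinb2 lay below that filter and were not tested.

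The samples were 4 secondary and 3 tertiary gliomas. Secondary gliomas had grown in NOD/SCID mice from cells of low-grade, early-onset primary tumours, and tertiary gliomas had grown in NOD/SCID mice from cells of a secondary glioma. Glioma cells of both groups were of C57/Bl6 background and overexpressed PDGF-B together with EGFP. Both groups were dissociated with trypsin and sorted for EGFP before RNA extraction. NOD/SCID mice lack functional B and T lymphocytes but keep myeloid cells. The labels give no age, no promoter for the transgene and no donor tumour for any sample, so p-values measure only the spread between these samples.

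Urokinase and tissue plasminogen activator are serine proteases that cut plasminogen, a circulating zymogen made mainly in the liver, into the active protease plasmin. The urokinase receptor holds urokinase at the cell surface, and serpins such as Serpine2 and Serpinb2 block the activators by forming covalent complexes with them. Plasmin degrades fibrin and matrix proteins and releases growth factors. In the brain, tissue plasminogen activator is known from neurons and vessel walls, and urokinase and its receptor from activated microglia and invading tumour cells.

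Array medians lay between 5.57 and 5.64 on the log2 scale in the 7 arrays, whose number limits how precise any value can be. The list means given below average every gene of a list with a probe, also genes below the filter. Oligodendrocyte precursor markers, typical of PDGF-driven glioma cells, had list means of 9.96 to 10.48 in secondary and 10.10 to 10.52 in tertiary gliomas, and 0 of 9 were called, with 0 at an unadjusted limma p under 0.05. Among them Olig1 had means of 11.78 and 11.77, and Pdgfra, the PDGF receptor gene, 10.96 and 11.01. Markers of microglia and macrophages had list means of 10.09 to 10.88 in secondary and 5.90 to 6.78 in tertiary gliomas, with 18 of 18 called lower. Among these 18, only Adgre1 had a tertiary mean below the dim-probe filter, so it passed that filter through the secondary group, and without it the count was 17 of 17. Over all genes tested, 6.33% were called lower. In sorted bulk RNA, fewer cells of a type and less RNA per cell cannot be told apart.

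Plau, which encodes the secreted serine protease urokinase, was high in every secondary glioma and low in every tertiary glioma. Its log2 expression was 10.02, 10.57, 10.25 and 10.18 in secondary gliomas 1 to 4, and 4.40, 5.22 and 4.55 in tertiary gliomas 1 to 3. The groups did not overlap, and the lowest secondary value lay 4.80 above the highest tertiary value. The mean was 10.26 ± 0.23 (SD, n = 4) in secondary and 4.72 ± 0.44 (SD, n = 3) in tertiary gliomas. This is a log2 difference of -5.53 with a standard error of 0.23, or a 46.3-fold higher level in secondary gliomas. It was the 2nd most negative difference among the 14453 genes tested, which is the property the gene was chosen by.

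A second Plau probe, not used for the gene's value, gave 9.15, 9.55, 9.18 and 8.94 in secondary gliomas 1 to 4 and 5.08, 4.53 and 4.00 in tertiary gliomas 1 to 3. Its log2 difference was -4.67, or 25.4-fold. Secondary glioma 2 was the highest sample on both probes. The lowest secondary sample was glioma 1 on the first probe and glioma 4 on the second. Among tertiary gliomas, glioma 2 was highest on the first probe and glioma 1 on the second, so no order is read from the Plau values within tertiary gliomas.

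**Figure D1:**
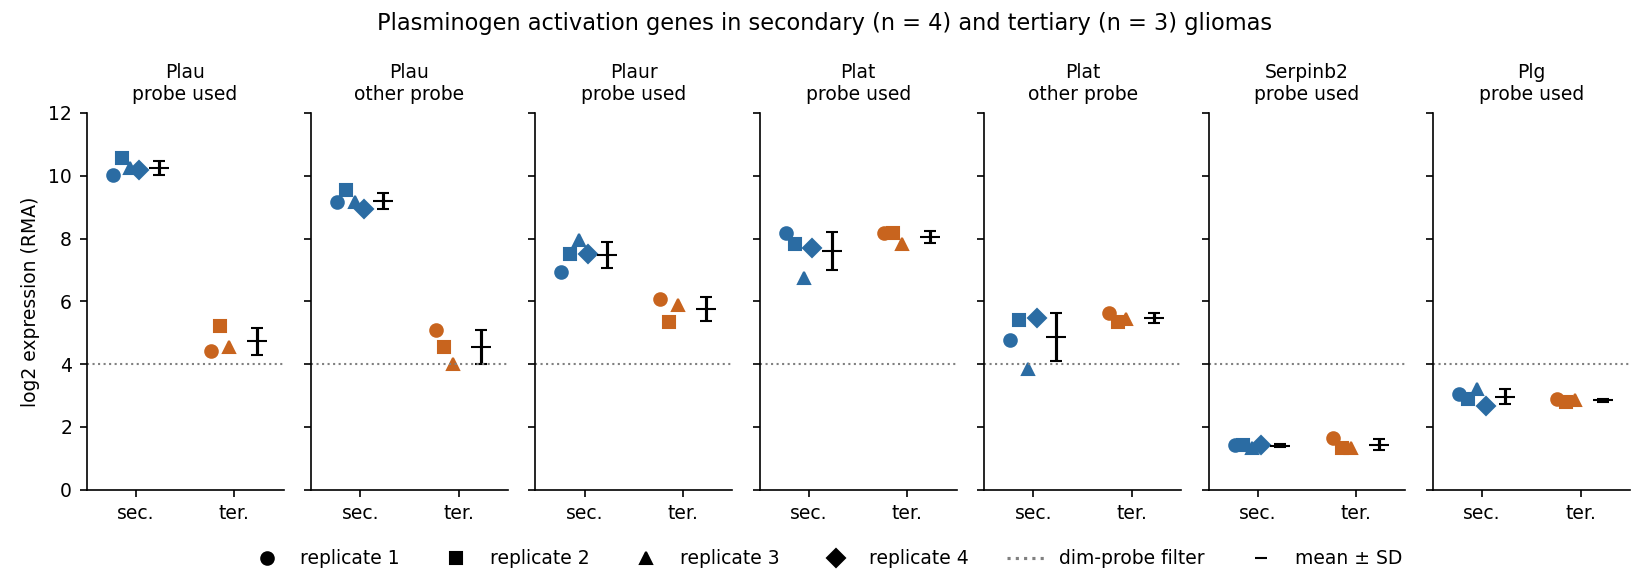
Log2 expression (vertical axis) of each member's probes in the 4 secondary (sec., blue) and 3 tertiary (ter., orange) gliomas, with a symbol for each replicate, the mean ± SD in black and the filter on dim probes as a dotted line. Plau and Plaur separate the groups, the Plat values of the groups overlap with secondary glioma 3 lowest on both probes, and Serpinb2 and Plg lie below the filter in all 7 samples.

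The receptor gene Plaur encodes a membrane-anchored protein with no enzymatic part, which concentrates urokinase at the cell surface. It was also higher in secondary gliomas, with log2 expression of 6.94, 7.49, 7.96 and 7.50 in secondary gliomas 1 to 4 and 6.07, 5.33 and 5.87 in tertiary gliomas 1 to 3. The groups did not overlap, with a gap of 0.87 between the lowest secondary and the highest tertiary value. Means were 7.47 ± 0.42 (SD, n = 4) and 5.76 ± 0.38 (SD, n = 3), a log2 difference of -1.72 with a standard error of 0.27, or 3.28-fold. The Plaur probe is of a kind that reads several transcripts of the gene, and no other probe of the gene was used.

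Plaur is the only member with a lower tertiary level whose promoter sequence was at hand, and it is shown for the letters its start site region holds. The sequence runs from 250 bases before to 50 bases after the start, on the plus strand of chr7:24462233-24462532 in GRCm38.p6 (RefSeq). Capitals mark every match, on either strand, to 7 short motifs that are spelled out after it.
Plaur promoter: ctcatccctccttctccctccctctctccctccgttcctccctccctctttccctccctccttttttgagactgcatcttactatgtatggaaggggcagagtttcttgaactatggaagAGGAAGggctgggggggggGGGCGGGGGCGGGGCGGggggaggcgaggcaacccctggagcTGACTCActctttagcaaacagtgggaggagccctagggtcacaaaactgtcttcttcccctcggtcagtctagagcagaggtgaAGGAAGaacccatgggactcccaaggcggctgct

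Positions count from the start site, which follows position -1. The AP-1 letters TGANTCA matched once, from position -69, and 7.81% of 32851 promoters of the same length held them. The PEA3 letters AGGAAG, an Ets factor motif, matched at -130 and at 16, and 35.4% of promoters held them. The GC box GGGCGG matched from -111, -105 and -100, where the last pair overlap by 1 base, and 35.7% of promoters held it. The letters of 4 other motifs were not in this window. These were the cyclic AMP element TGACGTCA, held by 1.79% of promoters, and the PU.1 motif GAGGAAGT, which contains the PEA3 letters and is held by 3.20%. The CCAAT box, named by its letters, was held by 37.4% and the TATA box TATAAA by 13.6%. GC content was 59.3%, against a median of 52.7% over the same promoters. These matches describe the letters and not binding.

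Plat, the other plasminogen activator, did not separate the groups. Its log2 expression was 8.17, 7.82, 6.74 and 7.69 in secondary gliomas 1 to 4 and 8.18, 8.16 and 7.83 in tertiary gliomas 1 to 3. The tertiary values lie close together and secondary glioma 3 stands below all other samples, while the ranges overlap. Means were 7.61 ± 0.61 (SD, n = 4) and 8.06 ± 0.20 (SD, n = 3), a log2 difference of 0.45 with a standard error of 0.32. Without secondary glioma 3 the difference was 0.16. A second Plat probe gave 4.78, 5.40, 3.84 and 5.49 in secondary and 5.64, 5.33 and 5.42 in tertiary gliomas, again with secondary glioma 3 lowest. Among secondary gliomas, glioma 3 also had the lowest list means of oligodendrocyte precursor (9.96) and neuronal markers (5.83). Its list means were the highest for microglia and macrophages (10.88), granulocytes and monocytes (5.93), lymphocytes (4.20), and pericytes and fibroblasts (6.23), and their part in its Plat value was not tested. These means include dim genes. Secondary means lay below the filter for 6 of 11 lymphocyte, 3 of 8 granulocyte and monocyte, and 1 of 9 pericyte and fibroblast markers. The lymphocyte mean is therefore not read as lymphocyte signal.

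Plasminogen, the substrate of both activators, had log2 values of 3.06, 2.90, 3.22 and 2.66 in secondary and 2.90, 2.79 and 2.85 in tertiary gliomas. Serpinb2, an inhibitor of urokinase that in other settings is induced in monocytes, had 1.43, 1.43, 1.34 and 1.43 in secondary and 1.64, 1.33 and 1.33 in tertiary gliomas. Several of these values are identical between arrays and close to the lowest value on any array, 0.95. All values of both genes lay below the dim-probe filter, and at this signal no difference was detectable. The differences of means were -0.11 for Plg and 0.03 for Serpinb2.

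In the limma fit over all genes, 2 of the 3 tested members, Plau and Plaur, were called lower at an adjusted p under 0.05, and none was called higher. Over all genes tested, 6.33% were called lower and 1.04% higher, and the groups did not overlap with a lower tertiary level in 11.2%. With each gene's own variance in place of limma's shared one, Plaur was not called. Since the set was chosen on this contrast, nothing is read from these counts.

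Microglia and macrophage markers were lower in tertiary gliomas, as were Plau and Plaur. The 18 microglia and macrophage markers had differences between -5.37 and -1.79, with a median of -4.21, against a median of 0.09 over all genes tested. The differences of Plau, -5.53 on one probe and -4.67 on the other, lie near the most negative markers, such as Ptprc at -5.37, and the Plaur difference of -1.72 near the least negative. All 18 were less negative than Plau on its first probe and more negative than Plaur. Laptm5, a lysosomal protein of leukocytes, and the complement gene C1qb differed by -3.00 and -3.18. Oligodendrocyte markers, read below, had differences of -2.42 to -0.56, a range that holds the Plaur value. Of the granulocyte and monocyte markers with a probe, 3 of 5 tested were called lower, where 6.33% of all genes tested were. The list mean was 4.91 to 5.93 in secondary and 3.82 to 3.94 in tertiary gliomas. In that list Csf3r, the receptor of granulocyte colony-stimulating factor, differed by -4.38 and S100a9 by -3.45, while Ccr2, Elane and Mpo lay below the dim-probe filter. The remaining one called, S100a8, passed the filter through its secondary group, and without it the count was 2 of 4. Ltf and Camp, tested and not called, differed by -0.18 and -0.11.

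Sample by sample, the microglia and macrophage mean was 10.09, 10.38, 10.88 and 10.32 in secondary gliomas 1 to 4. Plaur shared its lowest sample, secondary glioma 1, and its highest, secondary glioma 3. Plau was highest in secondary glioma 2 on both probes. In tertiary gliomas 1 to 3 the marker mean was 6.46, 6.78 and 5.90, with Plaur lowest in glioma 2, where the markers were highest. The part of myeloid cells in the values of Plau and Plaur was not tested.

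Other cell types were also read beside the members. Over all genes tested, 6.33% were called lower and 1.04% higher, and 11.2% did not overlap with a lower tertiary level. Counts at an unadjusted p under 0.05 stand alone here, with no share of all genes beside them. Of the oligodendrocyte markers, 2 of 5 were called lower (Mog and Mag, named after their values were seen), 5 of 5 were lower before adjustment at a p under 0.05, and 4 of 5 did not overlap between groups, with list means of 8.36 to 9.13 in secondary and 6.56 to 7.59 in tertiary gliomas. Of the pericyte and fibroblast markers, 1 of 7 was called lower (Abcc9, named likewise, which passed the dim-probe filter through its secondary group; without it, 0 of 6), with 4.56 to 6.23 against 4.52 to 4.74. Limma called 0 of 5 lymphocyte, 8 endothelial, 8 astrocyte and 7 neuronal markers tested, and 0, 4, 2 and 2 of them were at an unadjusted p under 0.05. Of these, 3 endothelial markers were lower and 1 higher, the 2 astrocyte markers were lower and the 2 neuronal markers higher. The list means were 3.91 to 4.20 and 3.99 to 4.12 for lymphocytes, 4.49 to 4.89 and 4.31 to 4.58 for endothelium, 7.36 to 8.38 and 6.66 to 7.83 for astrocytes, and 5.83 to 6.41 and 6.35 to 6.63 for neurons, secondary first. The part of these cell types in the values of the members was not tested.

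**Figure D2:**
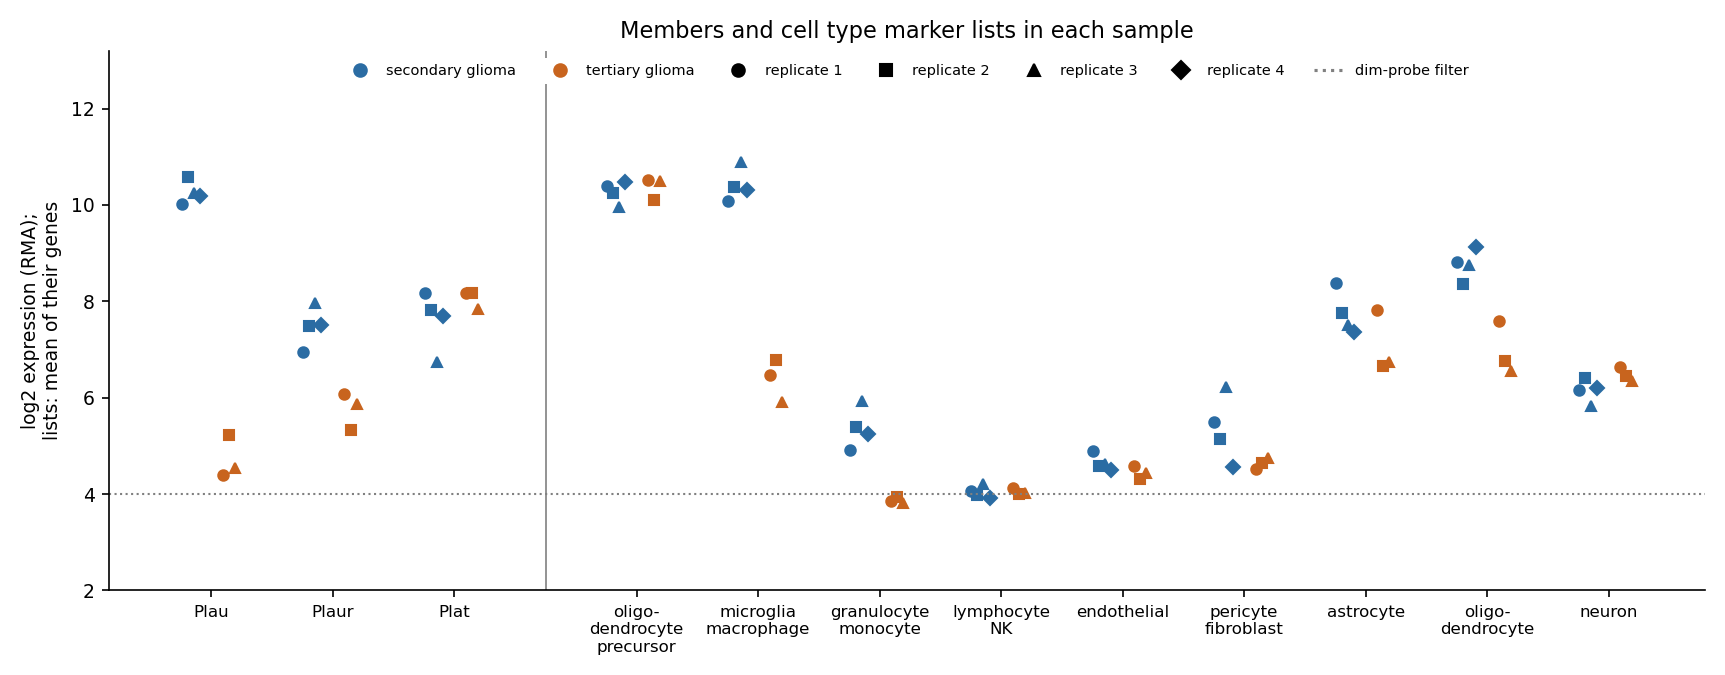
Log2 expression (vertical axis) of Plau, Plaur and Plat, and the mean log2 expression of each list of cell type markers, in every secondary (blue) and tertiary (orange) glioma. The microglia and macrophage means are 10.09 to 10.88 in secondary and 5.90 to 6.78 in tertiary gliomas, while the oligodendrocyte precursor means overlap between the groups.

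Around the members, 54 genes of the plasminogen system were listed by role, 49 had a probe and 40 were tested. Of the 40, 12 were lower in tertiary gliomas and 0 were higher in limma's test with Benjamini-Hochberg adjustment, and the median log2 difference was -0.31, against 0.09 over all genes tested. Over all genes, 6.33% were called lower and 1.04% higher. Of the 12, Itgam and Mmp12 had tertiary means below the dim-probe filter and so passed it through the secondary group, and without such genes 10 of 37 were called lower, with a median of -0.31. Before adjustment, 18 of the 40 were lower and 2 higher at a p under 0.05. The shares over all genes given here are at the adjusted threshold, so they do not compare with these unadjusted counts. The 12 were spread over the activating proteases, the receptors and binding partners, the substrates and the transcription factors. Beside this stands the median of -4.21 for microglial markers, whose part in these counts was not tested. The list was drawn up with earlier results of these data known, and some of its genes, such as Itgam, Itgb2, Spi1 and Mmp12, are themselves typical of myeloid cells.

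Among 6 proteases known to activate urokinase or plasminogen, 3 were lower, where 6.33% of all genes were. The lysosomal cysteine proteases cathepsin B and cathepsin L, which can activate pro-urokinase, had the most negative differences. Ctsb was at 12.28, 12.38, 12.47 and 12.35 in secondary and 10.72, 10.22 and 9.78 in tertiary gliomas. Its log2 difference was -2.13 ± 0.22 (SE, n = 4 and 3; limma, adjusted p = 0.000705). Its 4 further probes with signal past the filter were also lower in tertiary gliomas on average. Ctsl differed by -1.87 ± 0.22 (adjusted p = 0.00151), and the transmembrane protease hepsin, Hpn, by -0.95 ± 0.19 (adjusted p = 0.0238). The Hpn call was lost without secondary glioma 1, 2 or 3 and without tertiary glioma 2 or 3, at adjusted p values of 0.0546 to 0.0999.

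Of 12 receptors and binding partners tested, 3 were called lower and none higher, against 6.33% and 1.04% of all genes. Itgb2, a chain of the leukocyte integrin that pairs with the urokinase receptor, differed by -4.74 ± 0.37 (SE, n = 4 and 3; limma, adjusted p = 0.000176). Itgam, the other chain, was at 7.03, 7.10, 8.37 and 7.08 in secondary and 3.05, 3.18 and 2.86 in tertiary gliomas. Its 3 tertiary values lay below the dim-probe filter, so it was tested through its secondary level alone, and without it 2 of 11 were called. Lrpap1, a chaperone of the receptor that clears protease and serpin complexes, differed by -1.02 ± 0.14 (adjusted p = 0.00414). With all probes averaged, Lrpap1 was at -0.73. The median of the 12 was 0.02.

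Of the substrates, growth factors and matrix proteins that plasmin or the activators cut or that act on plasminogen, 3 of 8 tested were called lower and none higher, against 6.33% and 1.04% of all genes. Tgfb1, whose latent form plasmin can activate, was at 7.56, 8.31, 8.46 and 7.72 in secondary and 4.62, 4.79 and 4.22 in tertiary gliomas. Its log2 difference was -3.47 ± 0.26 (SE, n = 4 and 3; limma, adjusted p = 0.000160). Mmp12, the macrophage elastase, which cuts plasminogen to angiostatin, was at 7.68, 8.29, 4.28 and 7.05 in secondary gliomas, with secondary glioma 3 far below the others. Its tertiary values were 2.48, 2.47 and 2.02, below the dim-probe filter, so it was tested through its secondary level alone. Without the genes that passed in this way, 2 of 6 substrates were called. Fibronectin, Fn1, differed by -2.24 ± 0.45 (adjusted p = 0.0228). The Mmp12 call was lost without secondary glioma 4 or tertiary glioma 2 or 3. The Fn1 call was lost without secondary glioma 2 or 3 or tertiary glioma 3 (adjusted p of 0.0576 to 0.0693).

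Ets, AP-1, NF-kB and Egr family factors, which are known to act on urokinase regulatory DNA, were lower in 3 of 12 cases, against 6.33% of all genes. Spi1, the Ets factor PU.1 of myeloid cells, was at 7.63, 7.87, 8.32 and 7.81 in secondary and 5.19, 5.37 and 5.22 in tertiary gliomas. Its difference was -2.65 ± 0.18 (SE, n = 4 and 3; limma, adjusted p = 0.000113), and the groups lay far apart. Ets2 differed by -1.02 ± 0.24 (adjusted p = 0.0481) and the AP-1 subunit Junb by -0.96 ± 0.21 (adjusted p = 0.0336). With all probes averaged, Ets2 was at -0.45 and was not called. The Ets2 call was also lost without secondary glioma 2, 3 or 4 or any of the tertiary gliomas (adjusted p of 0.0619 to 0.163), and the Junb call without secondary glioma 2, 3 or 4 or tertiary glioma 1 or 2 (0.0553 to 0.130). Of the 10 called genes that did not pass the filter through the secondary group alone, 6 stayed called whichever sample was removed: Itgb2, Lrpap1, Ctsb, Ctsl, Tgfb1 and Spi1.

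**Figure D3:**
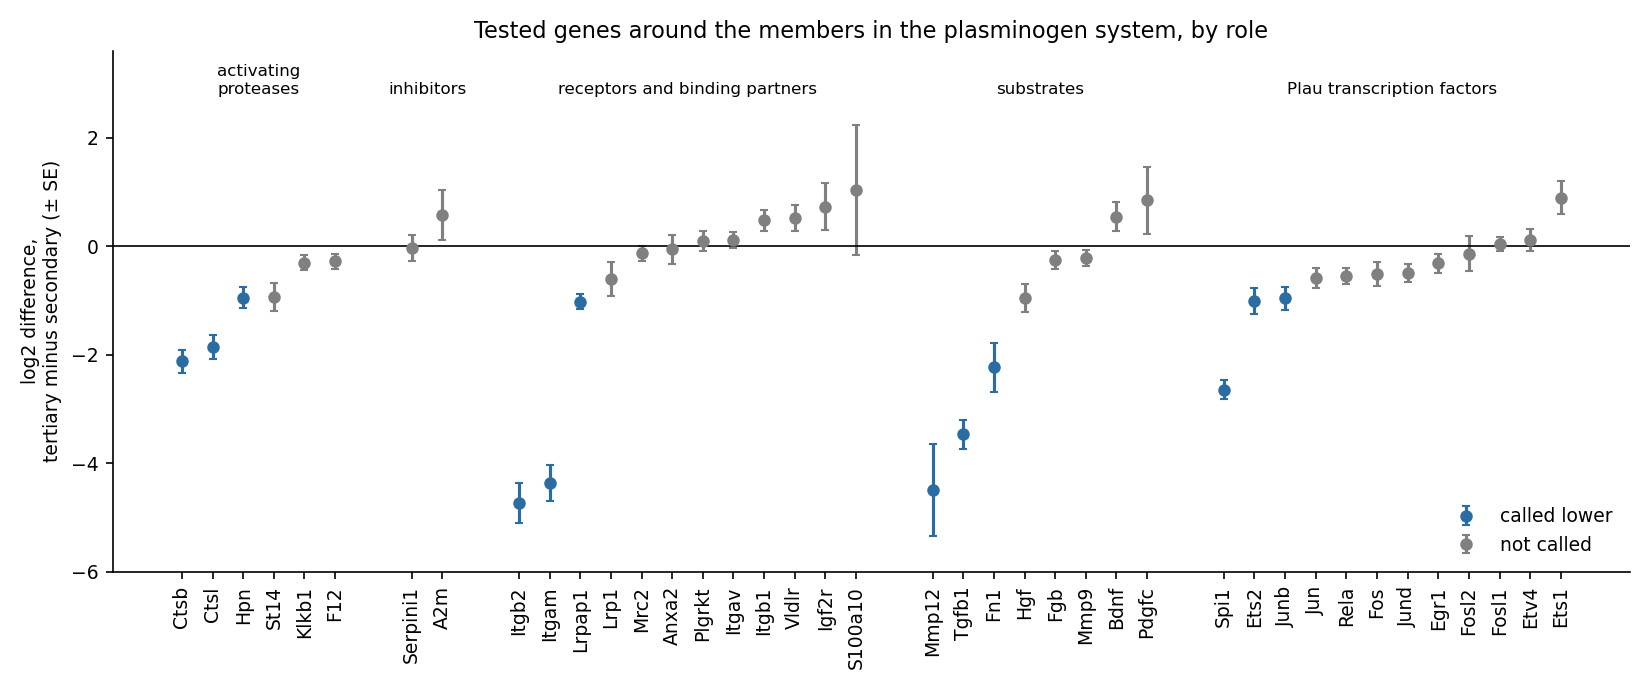
Log2 difference between tertiary and secondary gliomas (vertical axis, ± SE from limma, n = 4 and 3) for the 40 tested genes around the members, grouped by role, with called genes in blue and others in grey. The lowest points are Itgb2 at -4.74, Mmp12 at -4.50 and Itgam at -4.36, where the tertiary means of Mmp12 and Itgam lie below the dim-probe filter, and no gene is called higher.

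Of 7 inhibitors listed, 5 had a probe and 2 were tested, with 0 called in limma's fit and 0 at an unadjusted p under 0.05. A2m, a broad protease inhibitor, had a difference of 0.58 ± 0.46 (SE, n = 4 and 3; adjusted p = 0.479). Neuroserpin, Serpini1, an inhibitor of tissue plasminogen activator, had -0.03 ± 0.24 (adjusted p = 0.952). In the family of the members Serpine2 and Serpinb2, 39 other serpin genes had a probe, 11 were tested and limma called 0, with 1 at an unadjusted p under 0.05 (Serpina3n, 0.80 ± 0.32 SE, adjusted p = 0.189, named after its values were seen). They had differences from -1.41 to 0.80 and a median of -0.03. Over all genes tested, 6.33% were called lower and 1.04% higher. At these shares, 0 calls in lists as short as these is not read as a lack of change. Serpinf2, the plasma inhibitor of plasmin, Serpina5 and Serping1 lay below the dim-probe filter.

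Some genes had profiles over the 7 arrays close to those of the members, which is a description over 7 samples that all share the group difference. Likeness was the root mean square difference between log2 profiles, each centred on its own mean. This choice builds in shared high and low samples, so such sharing with a member is not a separate result. The 4 genes nearest to Plau were Ptprc, the pan-leukocyte phosphatase, at 0.27, the interferon-inducible Ifi207 at 0.37, Ms4a6b at 0.38 and Cd34 at 0.39, and 19 genes lay within 0.5. Ptprc was at 9.94, 10.19, 10.60 and 10.20 in secondary and 4.55, 5.65 and 4.38 in tertiary gliomas, so, like Plau, it did not overlap between groups. For Plaur the nearest were the ectonucleotidase Entpd1 at 0.07, the endocytic exchange factor Rin3 at 0.11, the cathepsin Ctsf at 0.13 and the crystallin gene Cryba4 at 0.16. Cryba4 had a tertiary mean of 3.96 and passed the dim-probe filter through the secondary group. The same held for Ifi207 and Ms4a6b, named above as near Plau, whose tertiary means also lay below that filter. Within 0.5 of the Plaur profile lay 474 genes. Entpd1 had the same lowest and highest sample as Plaur in each group, with 9.02, 9.60, 9.92 and 9.43 in secondary and 8.10, 7.48 and 7.95 in tertiary gliomas.

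The nearest profiles to Plat were those of the syntaxin Stx17 at 0.11, B230217C12Rik at 0.13, Cobll1 at 0.13 and the secretogranin Scg3 at 0.13. None of these 4 was called, and all were lowest in secondary glioma 3. Their choice by likeness to Plat builds in that low sample. Scg3, for example, was at 9.32, 9.01, 8.29 and 8.85 in secondary and 9.43, 9.32 and 9.10 in tertiary gliomas. In all, 6652 tested genes lay within 0.5 of the Plat profile. The root mean square deviation of Plat from its own mean was 0.47, so a flat profile also lies within 0.5. That count therefore does not measure likeness to Plat.

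**Figure D4:**
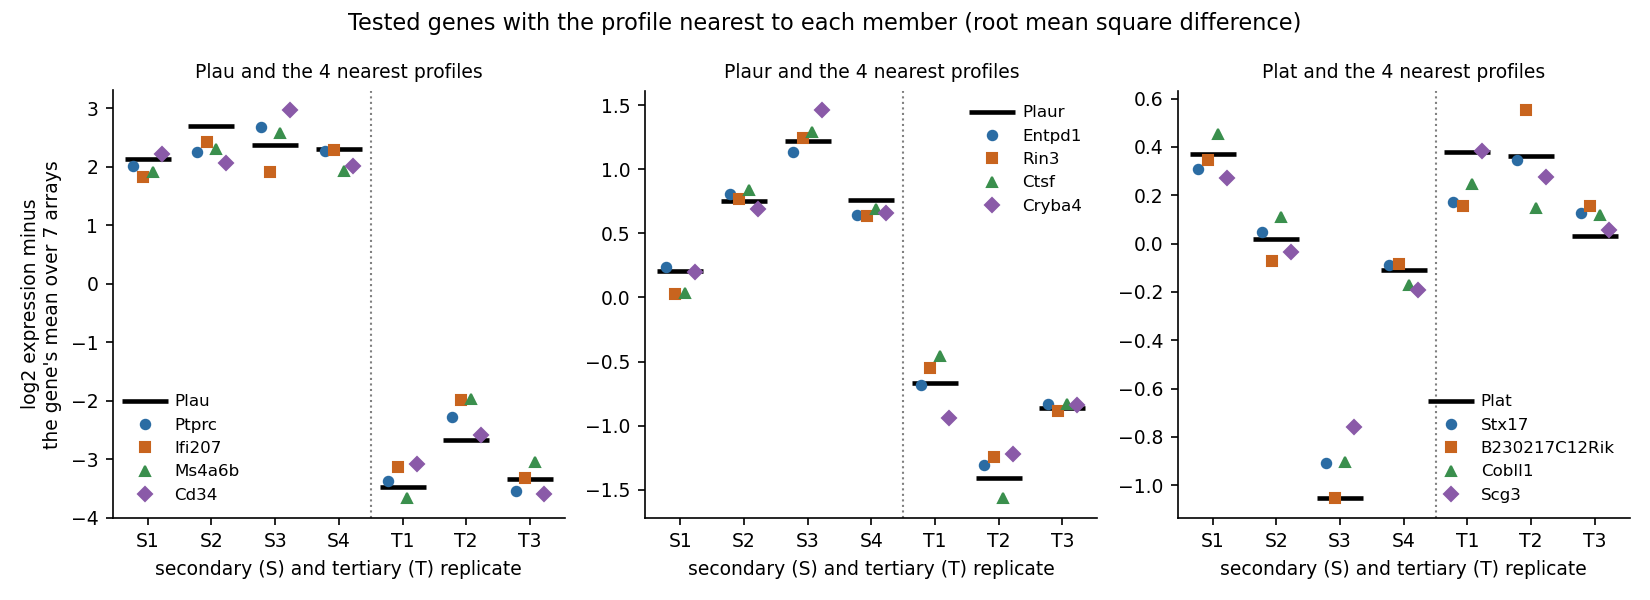
Log2 expression minus each gene's own mean over the 7 arrays (vertical axis) in secondary (S1 to S4) and tertiary (T1 to T3) gliomas, for Plau, Plaur and Plat (black bars) and the 4 tested genes with the nearest profile (coloured symbols). The genes nearest to Plau and Plaur are below their mean in all tertiary gliomas, and those nearest to Plat are lowest in S3. The genes were chosen for likeness, which builds in such sharing.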

How the data were processed

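Expression was measured on Affymetrix mouse arrays in 7 samples, 4 secondary and 3 tertiary gliomas, grouped by their titles. The deposited table holds log2 values that the authors made with RMA, per the submitters' processing notes, and the log base was read from the values. Quantile normalization within RMA hides a change shared by most genes, and dim probes are compressed. No batch could be tested, since scan dates and detection calls were not analysed here.

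Of 45101 probes, 34945 had 1 symbol, of which 34741 matched a gene of GRCm38.p6 by identifier, 932 had several, 9160 had none listed and 64 were controls. Tertiary minus secondary was fitted genome-wide with limma 3.58.1 in R 4.3.3 (lmFit, eBayes), with Benjamini-Hochberg adjustment over 14453 genes. Counts at an unadjusted p have no share over all genes beside them. Promoters came from RefSeq. Figures used matplotlib 3.10.9 and pandas 2.3.3 in Python 3.11.15. Steps were tested on simulated data.

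The members, the 5 role lists and the 9 marker lists were chosen with earlier results of these data known. Genes named besides the members follow a written rule: up to 4 called genes by lowest p from each role list, filled to 2 with uncalled ones, up to 4 called serpins, the 4 nearest profiles to each member and the 2 brightest markers of each list. Exceptions are marked. Pairs of arrays shared identical values at no more than 5.39% of probes, so none was treated as a repeat. Alternatives covered probe choice, dim filter, normalization, variances, array weights, a replicate block, the threshold and leaving out each sample.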

Additional observations from a re-analysis of the deposited data

Results flagged for a closer look

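Secondary glioma 3 stood apart from the other secondary gliomas in several genes named here, by Dixon's test for groups of 4. Chance flags about 1 in 20 such groups, and 57 genes were examined. In Itgam it was at 8.37, above the others at 7.03 to 7.10. In A2m it was at 5.80, below 6.89 to 6.90, in Serpini1 at 4.22, below 4.55 to 4.57, and in Flt1, a receptor of vascular endothelial growth factor, at 6.57, below 7.37 to 7.52. In the member Serpinb2 it was at 1.34 where the other 3 were all at 1.43, and in Kcns1, one of the profiles nearest to Serpinb2, at 4.04 where the others were all at 4.11. In Slit3, likewise near Serpinb2, secondary glioma 1 was at 4.12 and the others at 4.05. The last 3 rest on values that are identical on the remaining secondary arrays. Kcns1 and Slit3 were picked for likeness to Serpinb2, so their flags are not independent of its nearly flat profile. The rate of 1 in 20 takes no account of such a choice.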

How the results depend on the processing

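The differences of Plau, Plaur and Plat kept their sign under every alternative computed, while that of Serpinb2, below the filter, ranged from -0.07 to 0.08 when 1 sample was left out. With all probes averaged the Plau difference was -5.10, and no other member difference moved by more than the spread between replicates. The 2 members called became 1, without Plaur, with the replicate block and with each gene's own variance. The 915 genes called lower became 575 with the replicate block and 492 with own variances. The 151 genes called higher became 61 with the replicate block, 29 with own variances, 668 with array weights and 437 at an adjusted p under 0.10, and ranged from 27 to 783 when 1 sample was left out: 59, 74, 67 and 67 without secondary gliomas 1 to 4, and 783, 27 and 44 without tertiary gliomas 1 to 3. In the wider list the 12 called lower became 7 with the replicate block, where Lrpap1 (adjusted p = 0.0591), Hpn, Fn1, Junb and Ets2 were lost, and 7 with own variances, where Mmp12, Hpn, Fn1, Junb and Ets2 were lost, and 8 without secondary glioma 2, tertiary glioma 2 or tertiary glioma 3. The 0 called higher became 2 with array weights and 0 to 1 when 1 sample was left out, the 1 being without tertiary glioma 1. Serpins other than the members had 0 calls in every fit. For 32 further named genes, 524 of 570 values kept their side of the threshold, 37 lost and 9 gained a call. None changed sign where the main or the alternative fit called the gene. Genes called in neither could change sign, as Col1a1 did, from -0.50 to 0.33 with array weights. The labels do not say whether samples with the same replicate number are paired. Their deviations correlated at 0.04, -0.14 and 0.01 over genes, and secondary glioma 2 correlated best with tertiary glioma 1, at 0.27. Such correlations cannot decide this, since the labels name no donor tumour. The cause of the changes between fits was not tested. Signal limits Plg and Serpinb2, which lay below the dim filter, and the low tertiary values of Plau.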

Other observations

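Genes next to the members on the chromosome were also read. For each of Plau (chromosome 14), Plaur (chromosome 7) and Plat (chromosome 8), the 3 tested genes before and the 3 after it in gene order were read, chosen after the member values were known. Limma called 0 of these 18 genes, where 6.33% of all genes tested were called lower and 1.04% higher. At an unadjusted limma p under 0.05 there were 4, of which 2 were lower and 2 higher. That count has no share of all genes beside it, so nothing is read from it. Around Plau the differences lay between -0.73 and 0.82, with the sulfotransferase Ndst2 lowest and vinculin, Vcl, highest. Around Plaur they lay between -0.43 and 0.72, and around Plat between -0.12 and 0.35.

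For the dim members the nearest profiles were nearly flat ones. Those nearest to Serpinb2 were Pafah1b1, Kcns1, 4732419C18Rik and Slit3, at 0.02 to 0.04. Those nearest to Plg were Gm15706, Ms4a10, Otx2os1 and Prm2, at 0.04 to 0.05.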
